A study of Homo sapiens with 8 samples.

Results

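The genes described here are the transcriptional coactivators YAP1 and WWTR1 (which encodes TAZ), their DNA-binding partners TEAD1, TEAD2, TEAD3 and TEAD4, and 4 genes known as their targets, ANKRD1, CCN1, CCN2 and AMOTL2. These 10 genes were listed by name among the 57500 genes counted, and all 10 passed the filter on low counts. ANKRD1 was chosen by its log2 fold change of DZNep over Control in these same libraries, one of the strongest rises, so its change is given as a description without a test. RNAseq was measured in HEK293T, a line derived from human embryonic kidney that carries the SV40 large T antigen. In 4 libraries the cells had received 100 µM DZNep (3-deazaneplanocin A, an adenosine analog that inhibits AHCY, the enzyme that clears S-adenosylhomocysteine) for 48 h, and in the other 4 (Control) only vehicle for 48 h. Both groups were the same unmodified line grown with 10% fetal bovine serum, and the sample labels and the methods name different media (DMEM and RPMI).

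YAP and TAZ bind no DNA themselves and act on genes through TEAD proteins. In the Hippo pathway, the kinases STK3 and STK4 activate LATS1 and LATS2, which phosphorylate YAP and TAZ and keep them in the cytoplasm; scaffolds at cell junctions and a stiff or soft surface set how strongly this happens. RNA counts do not measure the phosphorylation or the location of these proteins. CCN1 and CCN2 (also known as CYR61 and CTGF) are secreted proteins of the extracellular matrix, AMOTL2 is a junction scaffold of the angiomotin family that binds YAP, and ANKRD1 is an ankyrin repeat protein best known from heart and skeletal muscle.

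Library totals ranged from 25043058 to 44902779 counts, and mitochondrial transcripts took between 3.02% and 13.7% of them. All 10 HEK293T marker genes were measured, with summed normalized counts of 36999 to 58104 in Control and 47664 to 55287 in DZNep. VIM made up the largest part of that sum (means of 25005 and 27534), so it says little about the others. KRT8 rose from 361 to 2001 on average (log2 fold change 2.44, edgeR, adjusted p = 0.000133). By edgeR's adjusted p under 0.05 alone, 4 of the 10 were higher (19.1% of all genes tested) and 2 were lower (21.8%). DZNep replicate 2 stood apart from all other libraries in the fibroblast collagen gene COL1A2, with 19 counts against 1002 to 1816 counts elsewhere. The study calls the replicates biological, without saying how the cultures were separated.

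The promoters of the target genes and of YAP1 are shown because they hold the letters that TEAD proteins are known to bind. RefSeq's table for GRCh38.p14 held 10 promoter windows for 7 of the 10 genes (none for CCN1, TEAD1 and TEAD4), and the 250 bases before each start site were searched. The TEAD letters were CATTCC or its reverse complement GGAATG, and the AP-1 letters were TGANTCA on both strands. Capitals mark these matches in the sequences below, each written 5′ to 3′ on the strand of its gene. The ANKRD1 window lies at chr10:90921088-90921337 (minus strand), that of CCN2 at chr6:131951373-131951622 (minus strand), that of AMOTL2 at chr3:134374448-134374697 (minus strand) and that of YAP1 at chr11:102110197-102110446 (plus strand).
ANKRD1: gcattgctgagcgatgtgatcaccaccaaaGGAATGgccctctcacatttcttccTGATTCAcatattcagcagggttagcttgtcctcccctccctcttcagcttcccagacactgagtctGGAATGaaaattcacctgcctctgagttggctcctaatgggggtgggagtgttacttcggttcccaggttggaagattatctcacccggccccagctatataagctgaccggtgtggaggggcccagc
CCN2: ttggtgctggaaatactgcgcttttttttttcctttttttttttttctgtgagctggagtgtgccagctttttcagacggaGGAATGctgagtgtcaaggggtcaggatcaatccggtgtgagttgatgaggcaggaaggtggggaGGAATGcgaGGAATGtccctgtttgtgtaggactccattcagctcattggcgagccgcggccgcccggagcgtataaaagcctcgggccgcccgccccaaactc
AMOTL2: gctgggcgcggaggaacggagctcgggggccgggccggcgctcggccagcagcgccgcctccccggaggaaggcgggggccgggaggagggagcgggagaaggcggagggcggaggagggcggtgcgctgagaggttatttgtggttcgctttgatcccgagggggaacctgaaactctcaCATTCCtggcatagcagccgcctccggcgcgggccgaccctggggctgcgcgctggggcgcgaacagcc
YAP1: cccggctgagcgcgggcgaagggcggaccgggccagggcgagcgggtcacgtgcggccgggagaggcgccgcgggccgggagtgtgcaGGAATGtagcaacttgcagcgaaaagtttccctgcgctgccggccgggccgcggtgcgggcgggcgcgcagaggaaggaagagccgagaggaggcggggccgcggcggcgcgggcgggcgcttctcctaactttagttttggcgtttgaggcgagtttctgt

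The ANKRD1 window held 2 TEAD matches, at bases -220 to -215 and -128 to -123 from the start site, and 1 AP-1 match (TGATTCA) at -195 to -189. The CCN2 window held 3 TEAD matches, at -169 to -164, -104 to -99 and -95 to -90, the last 2 close together. The AMOTL2 window shown held 1 match at -69 to -64, while the other AMOTL2 window held none. YAP1 itself had 1 match at -162 to -157. No match was found in the windows of WWTR1, TEAD2 and TEAD3. Of all 35116 RefSeq windows of this length, 11.9% held at least 1 TEAD match, 0.94% held 2 or more, and 6.57% held an AP-1 match. A match is a string of letters and not a measured binding site.

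**Figure D1:**
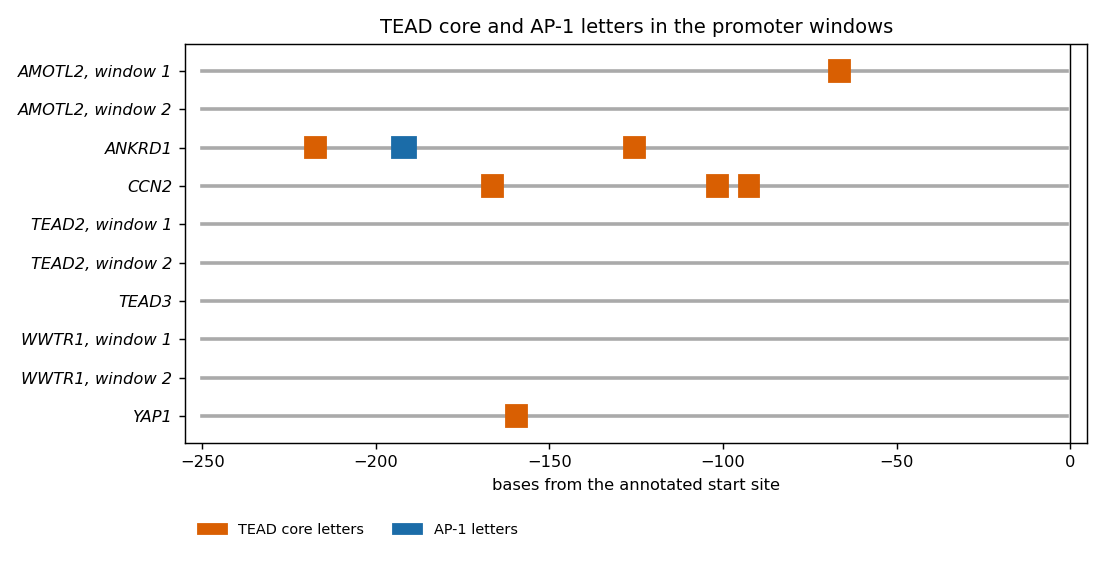
Positions of the TEAD letters (CATTCC or GGAATG) and the AP-1 letters (TGANTCA) in each promoter window, with the distance to the start site in bases on the x axis and 1 line per window. ANKRD1 and CCN2 hold 2 and 3 TEAD matches, AMOTL2 and YAP1 hold 1 in a window, and the windows of WWTR1, TEAD2 and TEAD3 hold none.

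The target genes were higher after DZNep, while the genes of the coactivators and of the TEAD family moved less. CCN1, CCN2 and AMOTL2 rose past both thresholds (edgeR's quasi-likelihood test, Benjamini-Hochberg adjusted p under 0.05 together with a log2 fold change above 1 or below -1). Of the 9 genes other than ANKRD1, 3 were thus called higher and 0 lower, where 10.6% of the 19171 genes tested were called higher and 13.5% lower. TEAD4 alone of the 9 was lower by an unadjusted p under 0.05, and DESeq2 called 0 lower. The Control and DZNep values did not overlap for the same 3 genes in the direction of higher values (19.5% of all genes tested) and for TEAD2 and TEAD4 in the direction of lower values (19.4%). When the test was made against the fold threshold itself (glmTreat in edgeR), CCN2 was the 1 gene of the 9 still called. Of the 19171 genes tested, 942 were then called higher and 1066 lower. By adjusted p alone, 3 of the 9 were higher (19.1% of all genes tested) and 1, TEAD4, was lower (21.8%). With the replicate number as a block, 3 were called higher (11.7%) and 0 lower (14.3%), and by adjusted p alone 4 were higher (28.8%) and 1 was lower (30.2%). The median log2 fold change of the 9 genes was 0.25, beside -0.03 over all genes tested.

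**Figure D2:**
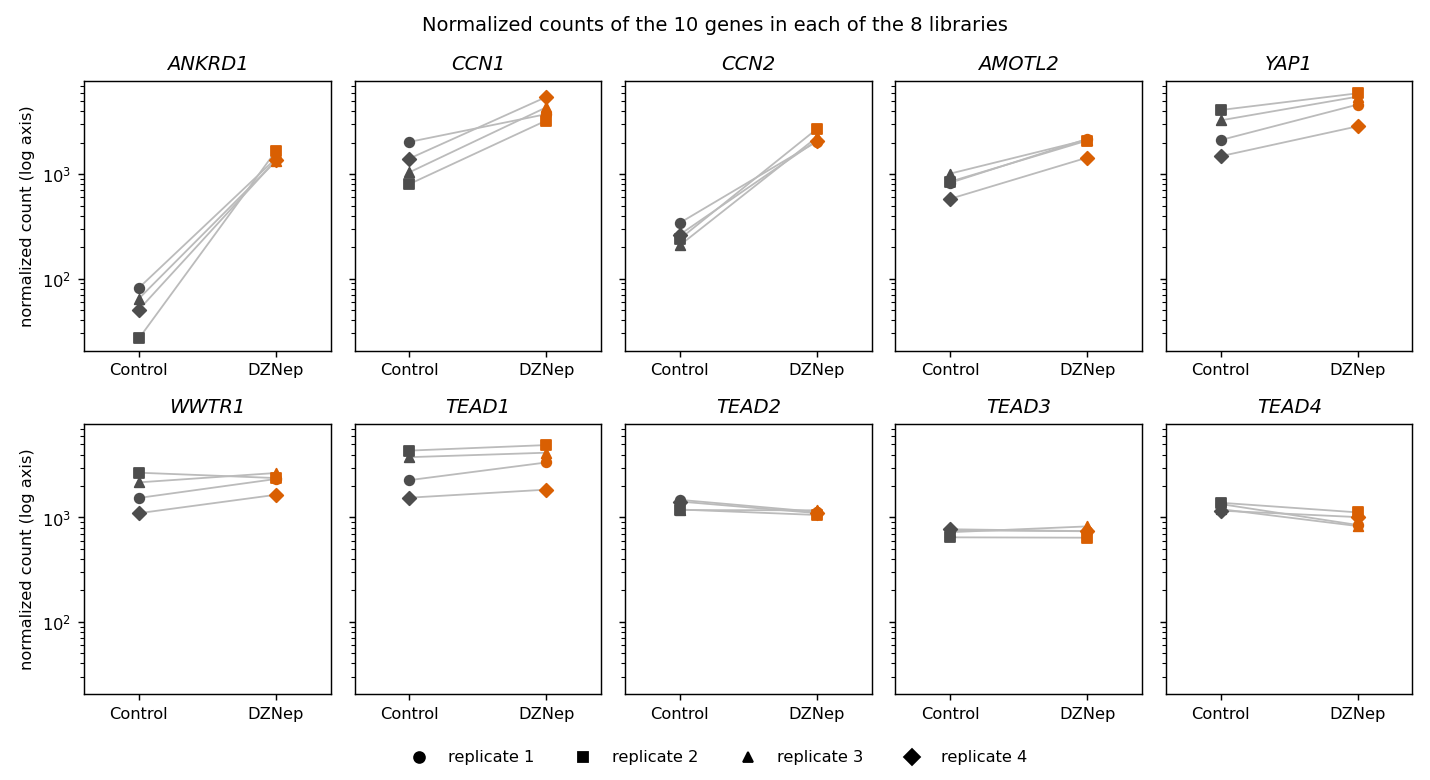
Normalized counts of the 10 genes in each library (y axis, log scale, 1 panel per gene, x axis the group), with a symbol for each replicate number and a grey line joining libraries of the same number. ANKRD1, CCN1, CCN2 and AMOTL2 have every DZNep library above every Control library, and TEAD2 and TEAD4 have every DZNep library below.

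ANKRD1 (chromosome 10, 90912096 to 90921087, minus strand) was low in Control. Its normalized counts (counts scaled by the deposited size factor of each library) were 81.7, 26.8, 64.5 and 50.5 in Control replicates 1 to 4, from 53, 30, 72 and 47 counts. In the DZNep libraries they were 1416, 1670, 1338 and 1365. Each DZNep library was thus more than an order of magnitude above the highest Control library, and the means were 55.9 ± 23.2 and 1447 ± 152 (SD, n = 4). The log2 fold change was 4.69, the fifth largest among the named genes called higher whose groups did not overlap and whose log2 CPM averaged 1 or more (genes of lower level with larger changes were not ranked), just below DEPP1 (4.71) and just above KRTAP19-1 (4.55). Between libraries of the same replicate number the log2 ratio ranged from 4.11 to 5.96.

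CCN2 (chromosome 6, 131948176 to 131951372, minus strand) had the largest change of the targets that were tested. Control replicates 1 to 4 gave 342, 240.2, 209 and 264 normalized counts. After DZNep the values were 2051, 2713, 2259 and 2101. The lowest DZNep library was well above the highest Control library, with means of 264 ± 57.0 and 2281 ± 301 (SD, n = 4). CCN2 rose by 3.09 on the log2 scale (standard error 0.19, 95% interval 2.67 to 3.51; edgeR, adjusted p = 5.16e-06).

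CCN1 (chromosome 1, 85580761 to 85584589, plus strand) started from a higher level and spread more. Its normalized counts were 2041, 805, 1044 and 1414 in Control. They were 3766, 3272, 4377 and 5501 in DZNep. Control replicate 1 was the highest Control library, and the replicate 1 pair had the smallest log2 ratio (0.88, against 1.96 to 2.07 in the other 3 pairs). The means were 1326 ± 538 and 4229 ± 961 (SD, n = 4). On the log2 scale CCN1 rose by 1.65 (standard error 0.28, 95% interval 1.01 to 2.28; edgeR, adjusted p = 0.00124).

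AMOTL2 (chromosome 3, 134355347 to 134375479, minus strand) rose the least of the targets. Control replicates 1 to 4 had 829, 849.9, 1015 and 582 normalized counts. The DZNep libraries had 2182, 2104, 2139 and 1444. Replicate 4 was the lowest library in both groups, and the 4 log2 ratios within replicate numbers varied little (1.27 ± 0.14, SD). The means were 819 ± 178 and 1967 ± 350 (SD, n = 4), a rise of 1.24 on the log2 scale (standard error 0.20; edgeR, adjusted p = 0.000913).

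DZNep replicate 2, the library with almost no COL1A2, had the highest DZNep values of ANKRD1 and CCN2 and the lowest of CCN1, still above every Control library. Without it the log2 fold changes were 4.62 for ANKRD1, 3.00 for CCN2 (edgeR, adjusted p = 4.09e-05), 1.76 for CCN1 (0.00241) and 1.21 for AMOTL2 (0.00393). Since ANKRD1 is a muscle gene and CCN1 and CCN2 are abundant in fibroblasts and endothelium, markers of those cells were read beside them. Of 12 muscle markers 6 passed the filter on low counts, and MYH6, MYH7 and DES rose (50% of those tested, beside 10.6% of all genes tested). In Control replicates 1 to 4 MYH6 had 0, 1, 0 and 1 counts, MYH7 1, 1, 2 and 1, and DES 6, 3, 3 and 11. They passed the filter through their DZNep counts, so the 50% is no like share beside the 10.6%. The summed level of all 12 was 794 to 1089 normalized counts in Control and 963 to 1025 in DZNep. Most of that sum came from RYR2 and ACTN2, so it says little about the other markers. RYR2 was lower after DZNep, with means of 635 and 460 (log2 fold change -0.49, edgeR, adjusted p = 0.0296), under the fold threshold. The means of ACTN2 were 233 and 360 (edgeR, adjusted p = 0.0892). MYL2 and NPPB had at most 3 counts in every library, and 6 of the 12 had at most 3 counts in every Control library. Of 8 fibroblast markers LUM alone rose (12.5%, near the 10.6% of all genes tested). The sums of all 8 were 4368 to 8850 in Control and 3743 to 9328 in DZNep. The lowest DZNep sum was that of replicate 2, and the other 3 DZNep libraries had 8254 to 9328. Of 4 endothelial markers VWF and CDH5 alone were called higher (50%, beside 10.6% of all genes tested). In Control replicates 1 to 4 VWF had 3, 2, 3 and 2 counts and CDH5 2, 0, 0 and 0. Both passed the filter through their DZNep counts, so this 50% is no like share either. The sums of all 4 were 160 to 187 in Control, 205 in DZNep replicate 2 and 313 to 341 in the other DZNep libraries. Most of the Control sum came from PECAM1, which was not called. Its means were 163 in Control and 143 in DZNep (edgeR, adjusted p = 0.680), with 45.9 in DZNep replicate 2. Of 4 immune markers 3 were tested and none was called by edgeR (unadjusted p under 0.05 for 0, sums of 148 to 304 and 159 to 354). The untested one, CD3E, had 0 counts in every Control library and 9, 21, 18 and 36 counts in DZNep replicates 1 to 4. The part of these markers in the changes of the target genes was not tested, and in bulk libraries more cells of a type and more RNA per cell cannot be told apart.

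Of the coactivators, YAP1 (chromosome 11, 102110447 to 102233424, plus strand) was higher on average without passing the threshold. It had 2126, 4124, 3283 and 1489 normalized counts in Control. In DZNep it had 4649, 5963, 5541 and 2880.0. The groups overlapped, since DZNep replicate 4 lay below Control replicates 2 and 3, but within each replicate number the DZNep library was the higher one, by 0.53 to 1.13 on the log2 scale. The fitted log2 difference was 0.76 (standard error 0.32, 95% interval 0.04 to 1.48; edgeR, adjusted p = 0.0848). With the replicate number as a block it was 0.81 with an adjusted p of 4.63e-05, under the fold threshold, in a fit where 28.8% of all genes were higher by adjusted p alone. Leaving out Control replicate 2 gave 1.02 (edgeR, adjusted p = 0.0254), past both thresholds, and the range over the 8 fits without 1 library was 0.55 to 1.02.

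WWTR1 (chromosome 3, 149517235 to 149736714, minus strand) had 1539, 2684, 2169 and 1099 normalized counts in Control. In DZNep it had 2336, 2385, 2667 and 1649. The DZNep library was higher in 3 of 4 pairs and lower in the replicate 2 pair. The log2 fold change of 0.25 had a 95% interval of -0.34 to 0.83 (edgeR, adjusted p = 0.493), so the data do not fix its direction.

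YAP1 and WWTR1 were also compared with each other per length of exon, in TPM (counts per exon length, scaled to the same sum in every library). YAP1 made up 64.2% to 67.0% of the sum of YAP1 and WWTR1 in the Control libraries and 69.8% to 76.8% in the DZNep libraries. The shares did not overlap, with means of 65.6% ± 1.43 and 73.1% ± 2.89 (SD, n = 4). With the length of the longest transcript in place of all exons, the means were 57.4% and 65.7%.

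Among the DNA-binding partners, TEAD4 (chromosome 12, 2959330 to 3040676, plus strand) was lower after DZNep. It had 1344, 1384, 1201 and 1162 normalized counts in Control. The DZNep libraries had 847, 1119, 827 and 1008, all below the lowest Control library. TEAD4 fell by 0.45 on the log2 scale (standard error 0.15, 95% interval -0.77 to -0.13; edgeR, adjusted p = 0.0313), a difference that passed the p threshold and not the fold threshold. That p rose above 0.05 with library sizes alone (0.110), with every gene that had a read (0.124), and without Control replicate 1 (0.0705), 2 (0.0616) or 3 (0.0505) or DZNep replicate 1 (0.128) or 3 (0.102).

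TEAD2 (chromosome 19, 49340595 to 49362457, minus strand) had 1475, 1192, 1177 and 1421 normalized counts in Control. After DZNep it had 1131, 1057, 1171 and 1100.2. The DZNep libraries were all below the Control libraries, but the highest DZNep value and the lowest Control value were almost equal. The log2 fold change of -0.27, with a 95% interval of -0.56 to 0.03, did not pass the threshold (edgeR, adjusted p = 0.140). Exons of TEAD2 overlap those of CD37 on the other strand (954 counts in all 8 libraries), and whether counting used the strand is not given in the sources used here.

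TEAD1 (chromosome 11, 12674421 to 12944737, plus strand) varied more between replicates than between groups. Its normalized counts were 2277, 4368, 3779 and 1547 in Control. They were 3364, 4935, 4171 and 1847 in DZNep. Replicates 2 and 3 were high and replicate 4 was low in both groups, the DZNep library was higher in 4 of 4 pairs, and the fitted log2 difference of 0.23 had a 95% interval of -0.57 to 1.03 (edgeR, adjusted p = 0.640). TEAD3 (chromosome 6, 35473597 to 35497079, minus strand) ranged from 645 to 771 normalized counts in Control and from 640.3 to 821 in DZNep. Its log2 fold change lay close to 0, with a 95% interval of -0.31 to 0.30 and a sign that differed between scalings (edgeR, adjusted p = 0.983).

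The order of the libraries was shared by some of these genes. YAP1 and TEAD1 were highest in replicate 2, followed by replicates 3, 1 and 4, in both groups, and WWTR1 had that order in Control. Mitochondrial transcripts took 7.76%, 3.02%, 3.16% and 13.7% of the counts in Control replicates 1 to 4 and 7.04%, 4.25%, 4.44% and 10.1% in DZNep, so replicate 4 had the highest share and the lowest YAP1, WWTR1 and TEAD1 in both groups. The part of this share in their spread was not tested.

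**Figure D3:**
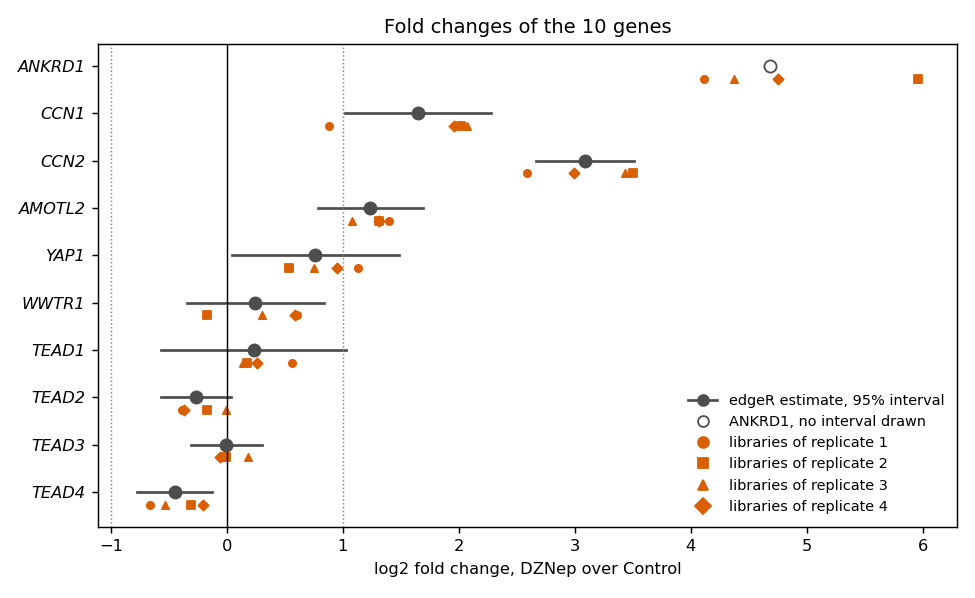
Log2 fold changes of the 10 genes, DZNep over Control, from edgeR with 95% intervals (points and bars) beside the log2 ratios of libraries with the same replicate number (small symbols). The estimates of CCN2, CCN1 and AMOTL2 lie above 1, the intervals of WWTR1, TEAD1, TEAD2 and TEAD3 include 0, and ANKRD1 is shown without an interval.

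Per length, the family of DNA-binding partners was led on average by TEAD4 in both groups. In DZNep, TEAD4 was above TEAD2 in 2 of 4 libraries. TEAD4 made up 36.8% ± 1.41 of the summed TEAD level in Control and 30.7% ± 4.55 in DZNep, with overlapping ranges but a lower share in DZNep within 4 of 4 replicate numbers. The mean shares of TEAD2 were 29.3% and 27.6%, those of TEAD1 18.2% and 24.0% (higher within 4 of 4 replicate numbers), and those of TEAD3 15.7% and 17.8%. In every library all 4 TEAD genes were expressed.

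**Figure D4:**
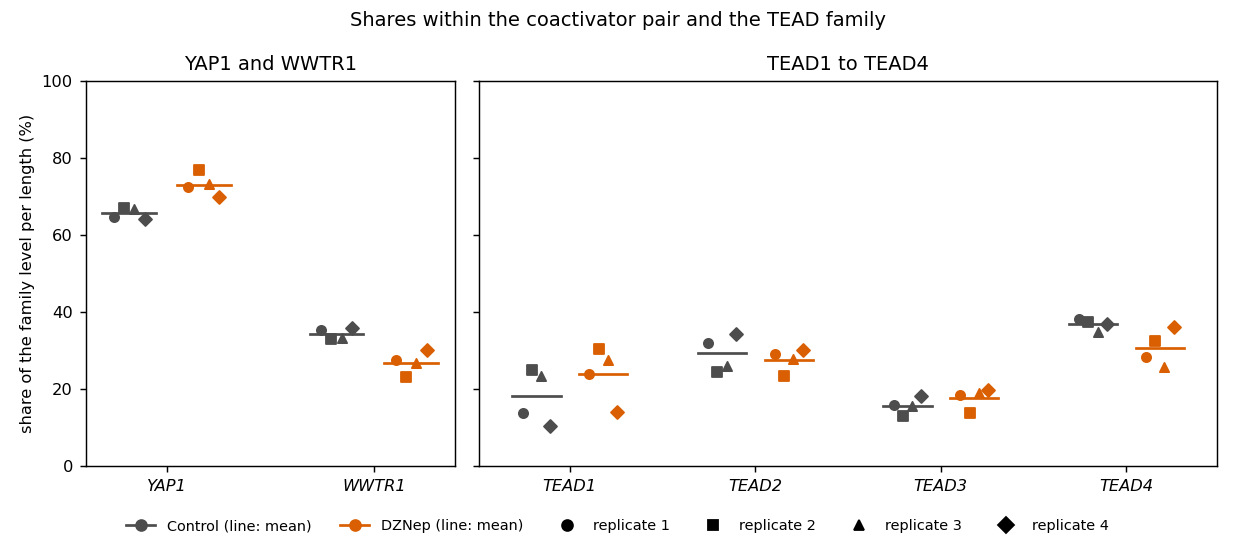
Share of each gene in the summed level per exon length of YAP1 and WWTR1 (left) and of the 4 TEAD genes (right), in percent, with 1 point per library and a line for each group mean. The YAP1 share is 64.2% to 67.0% in Control and 69.8% to 76.8% in DZNep, while the ranges of TEAD4 overlap.

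The order of levels among the 10 genes differed between the groups. In Control the mean level per length was 49.2 TPM for TEAD4, 41.3 for YAP1, 37.7 for TEAD2, 29.6 for CCN1, 26.6 for TEAD1, 21.0 for WWTR1, 20.4 for TEAD3, 11.5 for AMOTL2, 9.61 for CCN2 and 2.66 for ANKRD1. The ranges over the 4 libraries overlapped between all neighbours in this order except CCN2 and ANKRD1, although TEAD1 was also above WWTR1 and TEAD3 above AMOTL2 in 4 of 4 libraries. In DZNep the targets CCN1 (99.6 TPM), CCN2 (88.0) and ANKRD1 (72.5) stood first, ahead of YAP1 (69.9), TEAD4 (37.2), TEAD2 (33.4), TEAD1 (31.3), AMOTL2 (27.6), WWTR1 (24.7) and TEAD3 (21.5). With the longest transcript in place of all exons, YAP1 (61.4 TPM) lay below CCN2 (66.3) and above ANKRD1 (54.6), and in both groups WWTR1 then stood above TEAD1. With all exons the DZNep ranges of all neighbours overlapped, although CCN2 was above ANKRD1, YAP1 above TEAD4 and AMOTL2 above WWTR1 in 4 of 4 libraries.

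Of 24 genes for Hippo kinases, scaffolds and junction regulators upstream of YAP and TAZ, 2 were higher (8.33%, beside 10.6% of all genes tested) and 1 was lower (4.17%, beside 13.5%), with a median log2 fold change of 0.05 against -0.03 over all genes. FAT4, a giant cadherin, rose by 2.20 on the log2 scale (standard error 0.47; edgeR, adjusted p = 0.00419), although its Control and DZNep values overlapped. Its partner cadherin DCHS1 fell, from 275 to 98.4 normalized counts on average (standard error of the log2 fold change 0.31; edgeR, adjusted p = 0.00358). The kinase gene LATS2, itself known as a YAP target and also on the list of targets, rose by 1.15 (standard error 0.14; adjusted p = 0.000161), from 707 to 1604 normalized counts on average. The VGLL genes encode proteins that compete for or share TEAD, and 3 of 4 were tested without a call in either direction (unadjusted p under 0.05 for 2, both higher, and 0 calls by DESeq2). VGLL3 had a log2 fold change of 0.94 (standard error 0.27, edgeR, adjusted p = 0.0202), past the p threshold and under the fold threshold, with overlapping groups. With the replicate number as a block it was 0.96 (adjusted p = 2.73e-05). VGLL4, a repressor of TEAD activity, had a log2 fold change of 0.94 (edgeR, adjusted p = 0.0920), which was 1.07 with the replicate number as a block (adjusted p = 5.18e-05) and 1.24 without Control replicate 2 (adjusted p = 0.0360), both past the thresholds. With library sizes alone, and without DZNep replicate 4, 1 VGLL gene other than VGLL4 was called higher. The edgeR adjusted p of VGLL4 was 0.115 and 0.0507 there. Without Control replicate 2, 2 VGLL genes were called higher.

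Other genes known as targets of YAP and TAZ did not share 1 direction. Of 18 tested, 5 were higher (27.8%, beside 10.6% of all genes tested) and 2 were lower (11.1%, beside 13.5%), and their median log2 fold change was -0.05. NUAK2, a kinase, rose by 2.01 (standard error 0.19; edgeR, adjusted p = 5.14e-05), with 50.9, 68.7, 56.4 and 49.4 normalized counts in Control and 247, 205, 259 and 218 in DZNep. CCDC80, a secreted matrix protein, rose by 1.63 (standard error 0.21; adjusted p = 0.000240). FJX1, a secreted protein related to the Drosophila four-jointed kinase, fell by 1.49 (standard error 0.18; adjusted p = 0.000153). The others called were LATS2, MYOF (1.19) and TGFB2 (1.33) as higher and NT5E (-1.33) as lower. The call of TGFB2 was lost without any 1 of 5 libraries, Control replicates 1 and 4 and DZNep replicates 1, 2 and 3 (adjusted p of 0.0549 to 0.0938). Of these genes 13 had a promoter window in RefSeq's table, of which 5 held a TEAD match and 1 an AP-1 match in any of their windows. The shares over all RefSeq windows given above are per window, so they are no like background for these counts per gene.

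Of the relatives of the target genes, several were too low to test. Of the other 4 CCN genes 2 were tested, and CCN6 fell by 1.17 on the log2 scale (standard error 0.30; edgeR, adjusted p = 0.0102), a fold that was just short of the threshold without DZNep replicate 1 (adjusted p = 0.0396). Of the other 2 ankyrin repeat genes of the ANKRD1 family, ANKRD23 was tested and had a log2 fold change of -0.68 (edgeR, adjusted p = 0.435), which was 0.13 without Control replicate 4.

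ANKRD1, CCN1 and CCN2 are also known targets of SRF with its coactivators of the MRTF family and of AP-1, so genes of both were read beside them. Of 16 SRF and MRTF genes, 2 were higher (12.5%, beside 10.6% of all genes tested) and 1 was lower (6.25%, beside 13.5%), with a median of 0.27. By adjusted p alone 4 were higher (beside 19.1% of all genes tested). Among these were SRF itself (log2 fold change 0.78, edgeR, adjusted p = 0.00205) and MRTFA (0.63, adjusted p = 0.00371), both under the fold threshold. MRTFB had a log2 fold change of 0.12 (edgeR, adjusted p = 0.813). ACTA2, smooth muscle actin, fell by 2.75 (standard error 0.33; edgeR, adjusted p = 0.000172), from 967, 365, 616 and 428 to 109, 58.0, 91.6 and 101 normalized counts. ACTG2, another smooth muscle actin, rose by 2.06 (adjusted p = 0.0418) from at most 7 counts in any Control library, a call lost without Control replicates 2 or 3 or DZNep replicates 1, 3 or 4 (adjusted p of 0.0797 to 0.0999). CNN1, calponin, rose by 1.44 (standard error 0.33, edgeR, adjusted p = 0.00564), also from a low level, with 12, 8, 14 and 12 counts in Control replicates 1 to 4. Of 8 AP-1 genes 2 were higher (beside 10.6% of all genes tested) and none was lower by edgeR (beside 13.5%; unadjusted p under 0.05 for 0, and 0 calls by DESeq2), with a median of 0.17. FOSB rose by 1.46 (standard error 0.34; adjusted p = 0.00618) and JUNB by 1.05 (standard error 0.20; adjusted p = 0.00211), which was 0.94 to 0.98, under the fold threshold, without Control replicates 2 or 3 or DZNep replicate 4.

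**Figure D5:**
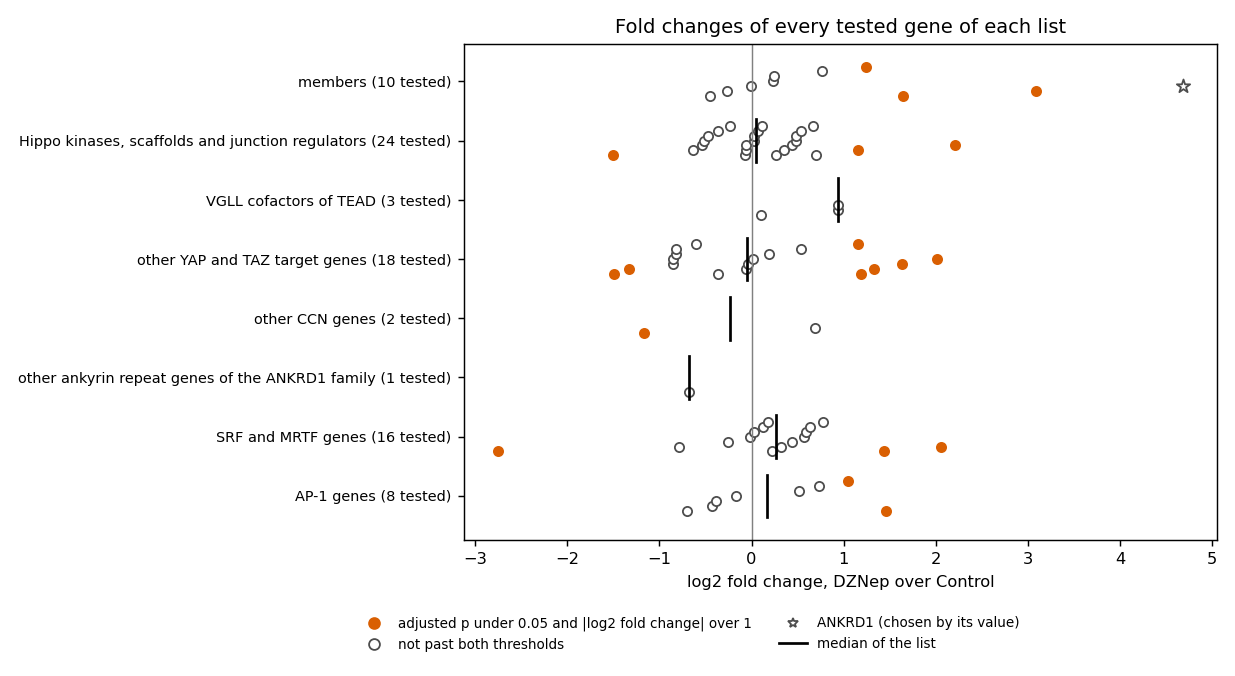
Log2 fold changes (x axis, DZNep over Control) of every tested gene in each list, with filled points for genes past both thresholds, open points for the others, a star for ANKRD1 and a vertical mark for the median of each list below the first. The other YAP and TAZ targets lie on both sides of 0, with 5 higher and 2 lower, and the SRF and MRTF genes range from -2.75 to 2.06.

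The genes most like ANKRD1 in their pattern over the 8 libraries were found by the root mean square difference of log2(normalized count + 1), each gene taken relative to its Control mean, among 13232 genes with a symbol and an average log2 CPM of at least 1. They were DEPP1 (0.40), KRTAP19-1 (0.45), COL9A1 (0.48), HSP90B2P (0.59) and CASQ1 (0.68). HSP90B2P is a pseudogene copy of HSP90B1, so its reads are uncertain. The mean of DEPP1 went from 77.7 to 2075 normalized counts. Nearest to CCN1 were PSTK (0.23), HLA-DMA (0.23), TBX6 (0.24), ZNF385C (0.26) and VPS37D (0.27). Because each gene was taken relative to its Control mean, this distance follows mainly the size of the change. The genes nearest to ANKRD1 were therefore other strong rises. None of these 10 genes was on the lists of YAP and TAZ targets, SRF and MRTF genes or AP-1 genes. Those lists hold 18, 16 and 8 tested genes, few beside the 13232 compared, so this absence carries little information.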

How the data were processed

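RNAseq was analysed in 8 libraries of HEK293T cells (4 Control and 4 DZNep, grouped by the treatment label). By the submitters' processing notes, the authors used Trimmomatic 0.36 for trimming, STAR 2.5.2b for alignment of the 150 bp read pairs (GRCh38) and featureCounts (Subread 1.5.2) for exonic reads per gene. The table of raw counts they deposited holds 57500 genes. The authors' second deposited table is a signal, normalized counts of the 19118 genes with more than 80 counts in all, and each value was checked to be the raw count over 1 library-wide size factor. The annotation release and strandedness are not given in the sources used here. Symbols, coordinates and exon lengths were taken from GENCODE 44 (56410 of 57500 identifiers matched), and promoter sequences from RefSeq (GRCh38.p14). TPM used union exon lengths over the genes with a length.

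The counts were tested with edgeR 4.0.16 in R 4.3.3 (quasi-likelihood, TMM, filterByExpr, 19171 genes, Benjamini-Hochberg adjustment over all of them), with an adjusted p under 0.05 and a log2 fold change above 1 or below -1 as the call. The alternatives were DESeq2 1.42.0, limma 3.58.1 on log2(normalized count + 1), other normalizations, filters and thresholds, a replicate block and leaving out each library. The test was checked on simulated data. The labels number the replicates 1 to 4 in both groups. Across genes, same-numbered Control and DZNep libraries deviated from their group means together (r of 0.237, 0.637, 0.595 and 0.805), and the numbers were treated as pairs in the block fit. Some libraries with different numbers correlated too (Control 1 with DZNep 4 at 0.671, above its own pair, Control 2 with DZNep 3 at 0.544 and Control 3 with DZNep 2 at 0.481). The main fit had no block; the study's methods name DESeq2 without stating a replicate term.

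The 10 genes and the gene lists were chosen with earlier results of these data known. Named genes are those 10, and up to 3 called genes with the largest change in each list or else the gene with the largest change. The 5 genes nearest to ANKRD1 and to CCN1 are named too. MYOF, TGFB2, NT5E, VGLL3, SRF, MRTFA and MRTFB, and the markers and rankings beside them, were named after their values were seen. Total counts of 25043058 to 44902779 per library set the precision, and intervals cover the spread of the fit only. No paper supplement was used, and the study's other data types were not analysed here.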

Additional observations from a re-analysis of the deposited data

Results flagged for a closer look

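The normalized count of AMOTL2 in DZNep replicate 4 (1444) lay far below the other 3 DZNep libraries (2104 to 2182). Its gap to the nearest library took 0.894 of the range of the group, above Dixon's 95% critical value for 4 samples. It was the only value so far from its group among 54 groups of 4 libraries tested (27 of the named genes in both conditions), and chance alone flags about 1 in 20 groups. Control replicate 4 was also the lowest Control library of AMOTL2 (582).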

How the results depend on the processing

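The log2 fold changes of CCN1 (1.47 to 1.92), CCN2 (2.99 to 3.22) and AMOTL2 (1.10 to 1.37) kept their direction and both thresholds in each of the 15 alternatives other than glmTreat, and that of ANKRD1 stayed between 4.44 and 4.90. The replicate block brought YAP1, VGLL4 and the muscle marker ACTN2 under the p threshold, and of the genes named changed the call of VGLL4 alone. TEAD3 turned from just below 0 to 0.0808 with library sizes alone, 0.0193 with size factors from median ratios, 0.0253 with at least 10 reads in every library, 0.0247 with every gene that had a read, 0.0268 with DESeq2 and 0.0202 with limma, and ranged from -0.0590 to 0.0642 without 1 library. ANKRD23 ranged from -1.06 to 0.134 without 1 library. Among all genes, 2041 were higher and 2589 lower; 1141 were higher with at least 10 reads in every library, 942 higher and 1066 lower with glmTreat, and 3656 higher and 4171 lower with no fold threshold. With glmTreat, which tests against the fold threshold itself, the calls were 1 higher among the 9 genes, 1 higher and 0 lower for Hippo regulators, 2 higher and 1 lower for other targets, 0 lower for other CCN genes, 0 higher for SRF and MRTF genes and 0 higher for AP-1 genes. With no fold threshold they were 1 lower among the 9 genes, 5 higher for Hippo regulators, 1 higher for VGLL genes, 5 lower for other targets and 4 higher for SRF and MRTF genes. VGLL genes had 1 higher with library sizes alone and 1 with the block. SRF and MRTF genes had 0 higher with at least 10 reads in every library, where low genes were not tested. The other ankyrin repeat genes had 1 higher with DESeq2. Without 1 library at a time the calls ranged from 0 to 2 higher for VGLL genes, 0 to 1 higher and 0 to 1 lower for other CCN genes, 0 to 1 higher for ankyrin repeat genes, and 1 to 2 higher for SRF and MRTF genes and for AP-1 genes. Causes of these shifts were not tested, beyond the filters and thresholds named. Other scalings moved the median of all genes by at most 0.08 on the log2 scale.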

Other observations

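In DZNep replicate 2, other genes of the matrix and contractile lists were low beside COL1A2. MYL9, a myosin light chain on the list of SRF and MRTF genes, had 17.7 normalized counts there and 111 to 153 in the other DZNep libraries. IGFBP3, an IGF-binding protein on the list of other targets, had 5.64 normalized counts there and 57.0 to 81.6 in the other DZNep libraries. LUM, by contrast, had 354 there and 412 to 545 in the others. These genes were chosen after their values were seen, and no test was made.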
